A study of Homo sapiens with 4 samples.

Results

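Chemokines are small secreted proteins that steer migrating cells, and their receptors are G protein-coupled receptors of the cell surface. The genes described here are 5 chemokines (CXCL9, CXCL10, CXCL11, CXCL16 and CCL3) and 5 receptors (CXCR3, CXCR4, CCR1, CCR2 and CCR10). They were taken from the 16057 rows of the deposited table by symbol, and all 10 were found. The set was chosen by measured values: CXCL10 and CXCR3 are among the transcripts with the largest drops in TPM in the comparison of treatments. The differences between treatments given below for these 10 genes are therefore a description and carry no test.

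RNA was sequenced from the human myeloma line MM.1S, an established cell line, after 26 h with JG342 at 350 nM or with the solvent DMSO. JG342 is an allosteric inhibitor of the chaperone HSP70, that is, it acts at a site other than the one that binds ATP. Each treatment had 2 libraries, which the series describes as biological duplicates, and all 4 come from this 1 line in serum-supplemented RPMI-1640 medium. P-values therefore measure the spread between cultures of 1 line. Values are TPM, a share of all transcripts in a library on a common total, which are corrected for transcript length and can be compared between genes. Differences are log2 fold changes of TPM + 1, JG342 against DMSO, from a limma fit across all genes that averaged 1 TPM or more, and a gene passes the threshold at an adjusted p under 0.05. A second fit adds the replicate number as a block, because libraries of the same number share a prefix in their labels. Its p-values rest instead on variance shared by genes of like level.

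In multiple myeloma, CXCR4 holds plasma cells in the bone marrow through its ligand CXCL12, and CCL3, also called MIP-1 alpha, is secreted by the tumour cells and drives bone resorption through CCR1 on osteoclasts. CXCL9, CXCL10 and CXCL11 share the receptor CXCR3 and are induced by interferon, in part through IRF1, and by inflammatory signals through NF-kB. CCR10 marks plasma cells that home to mucosal tissue, where CCL28 is made, CCR2 is the receptor for CCL2, and CXCL16 is a membrane-bound chemokine that proteases release.

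The promoters of CXCL10 and CXCR3, with the largest differences, and of the near-silent neighbour CXCL9, are shown because the known induction of these chemokines runs through motifs there. Each sequence is from RefSeq on GRCh38.p14, ends next to the transcript start, and is written 5' to 3' on the gene's strand, which is the minus strand for all of them. CXCL10 is chr4:76023498-76023747, CXCL9 is chr4:76007510-76007759, and CXCR3 is chrX:71618518-71618761, which stops 6 bases short because GENCODE starts a transcript there. For CXCL9 the bases that follow this start were not found in the first part of a GENCODE transcript of the gene. Capitals mark every match to the motifs named after the sequences.
CXCL10: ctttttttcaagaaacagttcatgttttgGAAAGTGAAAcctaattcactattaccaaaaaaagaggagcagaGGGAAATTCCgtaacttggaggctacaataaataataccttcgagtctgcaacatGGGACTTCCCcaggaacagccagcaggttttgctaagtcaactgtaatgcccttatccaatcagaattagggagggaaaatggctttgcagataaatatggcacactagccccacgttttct
CXCL9: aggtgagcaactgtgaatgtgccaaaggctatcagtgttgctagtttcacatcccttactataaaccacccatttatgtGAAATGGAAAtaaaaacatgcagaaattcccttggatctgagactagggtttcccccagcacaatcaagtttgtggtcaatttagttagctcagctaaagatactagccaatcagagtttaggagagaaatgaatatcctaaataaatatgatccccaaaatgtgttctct
CXCR3: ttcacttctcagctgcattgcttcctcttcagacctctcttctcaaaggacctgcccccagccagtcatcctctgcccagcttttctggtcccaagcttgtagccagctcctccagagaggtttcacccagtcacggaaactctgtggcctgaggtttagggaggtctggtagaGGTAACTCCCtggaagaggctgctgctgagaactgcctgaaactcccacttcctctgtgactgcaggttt

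The motifs searched on both strands of the 250 bases before each start were GAAA and GAAA with 2 bases between them for the interferon-stimulated response element (ISRE), TTCNNNGAA for the STAT site GAS, GGGA and CC with 4 bases between them for NF-kB, GAANNTTC for the heat shock element and TGATGCAA for the C/EBP-ATF element. Of 35116 promoters of this length, 3.02% held the ISRE letters, 6.57% the GAS, 22.6% the NF-kB, 5.78% the heat shock and 0.772% the C/EBP-ATF letters. CXCL10 held the ISRE letters from base 221 to base 212 before its start and the NF-kB letters at bases 177 to 168 and 122 to 113. CXCL9 held the ISRE letters at bases 171 to 162. CXCR3 held an NF-kB match on the other strand at bases 76 to 67. CXCL11 held a GAS match at bases 240 to 232 and an NF-kB match at bases 76 to 67. This NF-kB match lies in the last 127 bases of the window, which GENCODE counts as transcribed. CCR1 held a GAS match at bases 206 to 198. GENCODE counts the last 83 bases of the CCR1 window as transcribed, and the bases after that start were not found in the first part of its transcripts. CXCR4, which has 3 start sites in the table, held an NF-kB match at bases 54 to 45 of the third. The heat shock letters occurred at bases 8 to 1 of its first site. GENCODE counts the last 16 bases there as transcribed, so they do not lie before its start. CCR2 and CCL3 held none of these letters in the window. Promoters were found for 8 of the 10 genes, and a match describes letters only.

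In the DMSO libraries the 10 genes covered nearly the whole range of the transcriptome. CCL3 was by far the highest, at 4210 and 2718 TPM in DMSO replicates 1 and 2, which made it the 19th gene of the table. CCR1 followed at 308 and 245 TPM. A middle group held CXCR4 at 38.8 and 36.0 TPM and CCR10 at 41.1 and 32.1 TPM, whose DMSO values overlapped, and then CXCR3 at 21.3 and 22.6 TPM. CXCL16 at 13.4 and 14.9 TPM, CCR2 at 16.2 and 10.7 TPM and CXCL10 at 12.1 and 10.96 TPM lay close together: CCR2 spanned both other genes, and CXCL16 was above CXCL10 in both libraries. CXCL9, at 0.08 TPM in both, and CXCL11, at 0.13 and 0 TPM, were near the limit of detection. The cells therefore carried abundant RNA for a CC chemokine and its receptor, and little for the CXCR3 ligands.

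**Figure D1:**
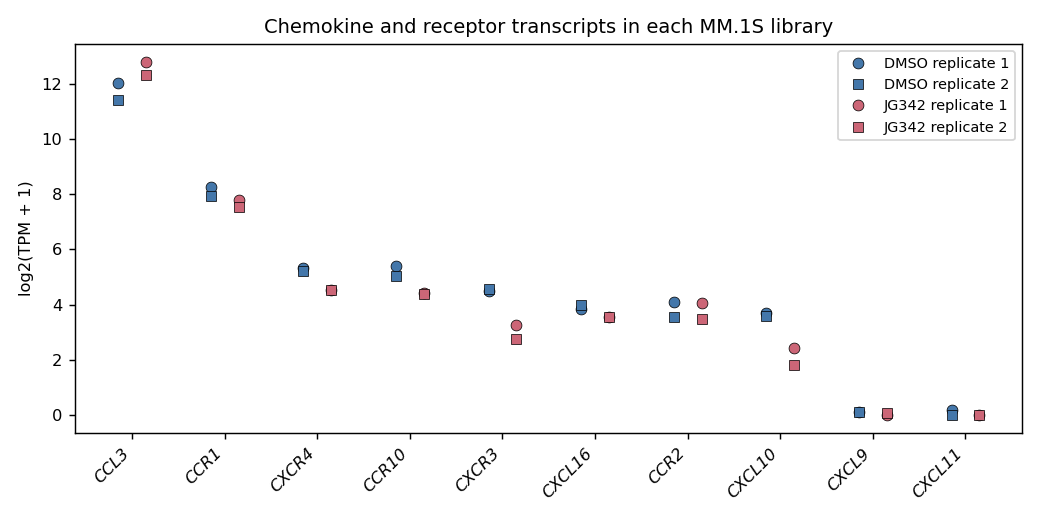
Level of each of the 10 genes in each library, as log2(TPM + 1) on the vertical axis, with DMSO in blue, JG342 in red, circles for replicate 1 and squares for replicate 2. Genes are ordered by their mean in DMSO, from CCL3 at 4210 and 2718 TPM to CXCL11 at 0.13 and 0 TPM.

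CXCL10, the interferon-induced T cell attractant, had 12.1 and 10.96 TPM with DMSO and 4.36 and 2.53 TPM with JG342, in replicates 1 and 2. Both JG342 libraries lay below both DMSO libraries, and JG342 replicate 2 was the lowest. The mean went from 11.5 ± 0.785 TPM (SD, n = 2) to 3.45 ± 1.29 TPM, or 29.9% of the DMSO level. The log2 fold change was −1.52 ± 0.21 SE, with −1.29 between the libraries numbered 1 and −1.76 between those numbered 2. These values rest on an estimated 67 and 60 reads with DMSO and 22 and 15 with JG342. In bulk RNA, fewer cells with a transcript and less transcript per cell cannot be told apart, here and for every gene below.

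CXCR3, the receptor of CXCL10, had 21.3 and 22.6 TPM with DMSO and 8.67 and 5.75 TPM with JG342. The groups did not overlap, and again JG342 replicate 2 was the lowest library. The mean went from 21.9 ± 0.912 TPM (SD, n = 2) to 7.21 ± 2.06 TPM, 32.9% of the DMSO level, a log2 fold change of −1.51 ± 0.18 SE. The ratio of CXCL10 to CXCR3 TPM within a library was 0.567 and 0.485 with DMSO and 0.503 and 0.440 with JG342. Both genes were chosen for their large drops, so this similar proportion is a description only. Among the 871 genes past the threshold as lower, averaging 5 TPM or more and lower in both numbered pairs, CXCL10 and CXCR3 ranked 2 and 3 by size. HES6 lay just above them at −1.77 and ID1 just below at −1.45.

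The profile of CXCR3 over the 4 libraries was the nearest to that of CXCL10 among 9813 genes that averaged 5 TPM or more, and the reverse also held. Likeness was the Euclidean distance between centred log2(TPM + 1) values, which was 0.160 for this pair. SFN (distance 0.174), INSIG1 (0.249), SPARC (0.381) and HES6 (0.402) came next to CXCL10. SFN (0.196), SPARC (0.358), GJA1 (0.360) and INSIG1 (0.368) came next to CXCR3. The points are the same 4 libraries that chose CXCL10 and CXCR3, so this likeness is a description with no test.

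CXCL9 and CXCL11, the other CXCR3 ligands, flank CXCL10 on chromosome 4 but were all but silent. CXCL9 was listed at 0.08 and 0.08 TPM with DMSO and at 0 and 0.07 TPM with JG342, and CXCL11 at 0.13 and 0 TPM with DMSO and at 0 TPM in both JG342 libraries. Each value above 0 is worth about 1 read, so no difference between treatments was detectable for either gene at this depth, and both fell below the limit of a mean of 1 TPM for the fit. Of the CXCR3 ligands, CXCL10 was thus the one with a measurable level in these cells.

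CXCR4, the marrow-retention receptor, had 38.8 and 36.0 TPM with DMSO and 22.2 and 22.1 TPM with JG342. The JG342 libraries were nearly equal and lay below both DMSO libraries. The mean went from 37.4 ± 1.92 TPM (SD, n = 2) to 22.1 ± 0.0495 TPM, 59.2% of the DMSO level, with a log2 fold change of −0.73 ± 0.11 SE. Its ligand CXCL12, a product of marrow stroma, was between 0.24 and 0.44 TPM in all libraries.

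CCR10, the mucosal homing receptor, had 41.1 and 32.1 TPM with DMSO and 20.4 and 20.1 TPM with JG342. The groups did not overlap, and the DMSO libraries differed more than the JG342 libraries. The mean went from 36.6 ± 6.41 TPM (SD, n = 2) to 20.2 ± 0.198 TPM, 55.3% of the DMSO level, with a log2 fold change of −0.81 ± 0.14 SE. In GENCODE, 439 of the 2619 exon bases of CCR10 are also exon of AC100793.2 and a smaller number of CNTNAP1, both on the other strand, and whether counting used the strand is not given in the sources used here. The ratio of CCL28, a CCR10 ligand, to CCR10 was 0.245 and 0.399 with DMSO and 0.691 and 0.638 with JG342.

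CCR1, a receptor for CCL3 and CCL5, had 308 and 245 TPM with DMSO and 223 and 183 TPM with JG342. Both JG342 libraries were below both DMSO libraries, but the DMSO libraries differed from each other by more than the gap between the groups. The mean went from 276 ± 44.4 TPM (SD, n = 2) to 203 ± 28.2 TPM, 73.4% of the DMSO level, with a log2 fold change of −0.44 ± 0.13 SE. CCR1 was not past the threshold. It passed as lower with the replicate block, where 15.7% of all genes did. It also passed as lower among genes averaging 5 TPM or more, where 991 of 9814 did. Nothing is read from this, because the comparison chose the set.

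CCR2, the CCL2 receptor that lies near CCR1 on chromosome 3, had 16.2 and 10.7 TPM with DMSO and 15.7 and 10.2 TPM with JG342. The values followed the replicate number and not the treatment, and the groups overlapped. Its log2 fold change was −0.05 ± 0.23 SE, and leaving out 1 library at a time moved it between −0.34 and 0.23. CCL2 itself was at 2.35 and 0.60 TPM with DMSO and 0.63 and 0.28 TPM with JG342.

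CXCL16, the membrane-bound chemokine, had 13.4 and 14.9 TPM with DMSO and 10.8 and 10.9 TPM with JG342. The groups did not overlap, and the gap was small: the mean with JG342 was 76.9% of the DMSO level, a log2 fold change of −0.35 ± 0.14 SE. CXCL16 shares 85 of its 2794 exon bases with MED11 on the other strand. CXCL16 was not past the threshold. It passed as lower with the replicate block, where 15.7% of all genes did, and after quantile normalization, where 984 of 12042 did. As for CCR1, nothing is read from this.

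CCL3 was the exception in direction. It had 4210 and 2718 TPM with DMSO and 7116 and 5035 TPM with JG342, and both JG342 libraries lay above both DMSO libraries. The libraries numbered 1 were higher than those numbered 2 in both treatments. The mean went from 3464 ± 1055 TPM (SD, n = 2) to 6075 ± 1471 TPM, 1.75 times the DMSO level, with a log2 fold change of 0.82 ± 0.21 SE. The difference was 0.76 between the libraries numbered 1 and 0.89 between those numbered 2. Since CCR1 was lower, the ratio of CCL3 to CCR1 TPM was 13.7 and 11.1 with DMSO and 31.9 and 27.5 with JG342.

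**Figure D2:**
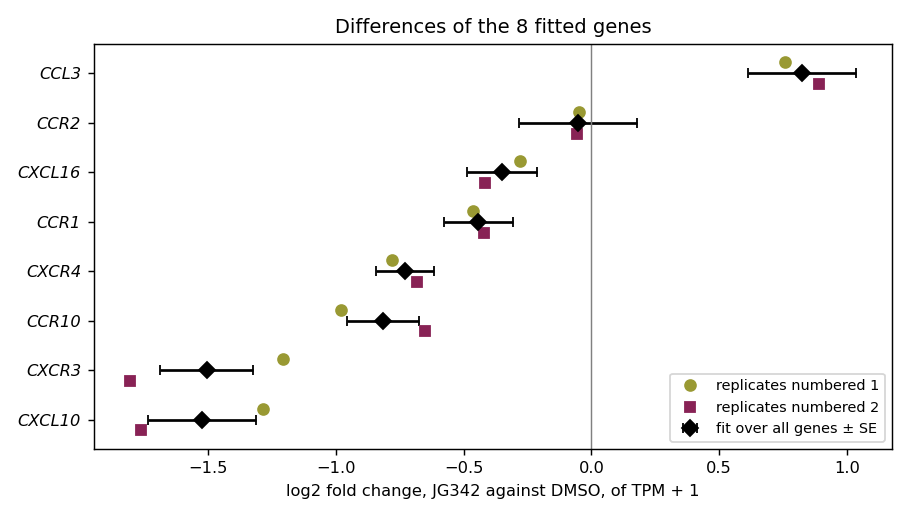
Log2 fold change of TPM + 1, JG342 against DMSO, for the 8 fitted genes (horizontal axis), with diamonds and bars for the all-gene fit ± SE and coloured points for the libraries of the same number. CCL3 stands alone to the right at 0.82, CCR2 sits at −0.05, and CXCL10 and CXCR3 lie furthest left at −1.52 and −1.51.

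Of the 8 genes fitted, 4 (CXCL10, CXCR3, CXCR4 and CCR10) were past the threshold of a limma adjusted p of 0.05 as lower, where the share over all 12042 genes was 7.62%, and 1 (CCL3) as higher, where it was 10.8%. CCR10 did not pass without a filter on low values. CCL3 did not pass without a filter on low values, without the mean-variance trend, after median scaling or quantile normalization, or when DMSO replicate 2 or JG342 replicate 1 was left out, and its log2 fold change ran from 0.51 without DMSO replicate 2 to 1.14 without DMSO replicate 1. In either direction the share over all genes was 18.4%. With the replicate number as a block 7 of the 8 passed, against 34.9% of all genes. The groups did not overlap for 6 genes as lower and 1 as higher, where 28.2% and 34.0% of all genes did so, or 62.1% in either direction. Because this comparison chose the set, nothing is read from these counts. The 8 genes had a median of −0.59 on the log2 scale, and all fitted genes 0.03.

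The reading of CCL3 is complicated by copies. Segmental duplication has left CCL3L1 and CCL3L3 as copies of CCL3, and the copies of CCL4 are CCL4L1 and CCL4L2. In GENCODE the coding parts of CCL3 and CCL3L1 match at 267 of 276 bases (96.7%), with 3 extra bases in CCL3L1. CCL3L3 and the untranslated parts were not compared. The stretch with the most differences is printed here to show how little separates these coding parts, with mismatches in capitals. It runs from coding base 169 to 258 of CCL3 and from 172 to 261 of CCL3L1, counted from the start codon, and holds 5 mismatches in 90 bases.
CCL3: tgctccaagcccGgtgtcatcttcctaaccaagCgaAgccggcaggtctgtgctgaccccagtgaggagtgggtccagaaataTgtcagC
CCL3L1: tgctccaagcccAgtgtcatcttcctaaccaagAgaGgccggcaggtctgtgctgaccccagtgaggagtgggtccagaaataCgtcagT

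The division of reads between these genes is therefore uncertain, and their sum is the safer value. CCL3, CCL3L1 and CCL3L3 together had 5627 and 3254 TPM with DMSO and 8800 and 5837 TPM with JG342. The sum differed by 0.74 on the log2 scale (0.64 and 0.84 in the numbered pairs), close to the 0.82 of CCL3 alone. CCL3 held between 74.8% and 86.3% of the sum. In GENCODE, 1115 of the 1494 exon bases of CCL3 are also exon of a gene on the other strand.

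**Figure D3:**
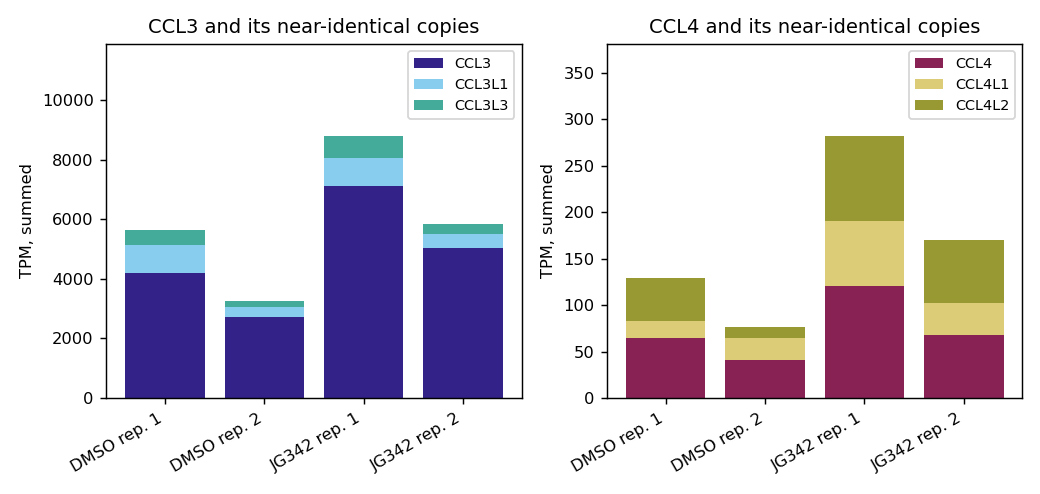
Summed TPM of CCL3 with CCL3L1 and CCL3L3 (left) and of CCL4 with CCL4L1 and CCL4L2 (right) in each library, with 1 colour per gene. The CCL3 sums are 5627 and 3254 TPM with DMSO and 8800 and 5837 TPM with JG342, and both panels have higher bars for JG342 than for DMSO replicates of the same number.

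Among the 10 fitted chemokines outside the chosen set, 2 rose, or 20% against 18.4% of all genes past the threshold. Of 43 other chemokine genes, 20 were in the table and 10 were fitted. CCL4L1 and CCL4L2, copies of the chemokine CCL4, rose, and none of the 10 fell. CCL4L1 went from 17.8 and 23.8 TPM to 70.2 and 35.1 TPM (log2 fold change 1.23 ± 0.27 SE, limma adjusted p 0.0162). CCL4L2 went from 46.5 and 11.9 TPM to 91.9 and 67.4 TPM (1.69 ± 0.47 SE, limma adjusted p 0.0382), with a DMSO spread wider than the gap between the groups. Both calls were lost without a filter on low values and without the mean-variance trend, and that of CCL4L1 also without DMSO replicate 1. CCL4L2 was also lost after median scaling, after quantile normalization and without DMSO replicate 2 or JG342 replicate 1. Without JG342 replicate 2, 4 of the other chemokines passed. CCL4L1 ranged over the alternatives from a limma adjusted p of 7.32e-24 to 0.116, and CCL4L2 from 5.47e-51 to 0.183. The lowest values are from the replicate block, which does not use each gene's own spread.

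CCL4 itself had 65.0 and 41.2 TPM with DMSO and 120 and 67.5 TPM with JG342, with a limma adjusted p of 0.0714 (1.52e-13 with the replicate block). As the coding parts of CCL4 and CCL4L2 match at 97.5%, the sum of CCL4, CCL4L1 and CCL4L2 is given too. It was 129 and 76.9 TPM with DMSO and 282 and 170 TPM with JG342, a log2 difference of 1.13 with 1.12 and 1.14 in the numbered pairs. CCL4 is the direct neighbour of CCL3 on chromosome 17, and the copies CCL3L3 and CCL4L2 lie further along.

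The remaining CC chemokines did not pass the threshold. CCL5, a ligand of CCR1, had 309 and 367 TPM with DMSO and 390 and 511 TPM with JG342 (0.41 ± 0.14 SE, limma adjusted p 0.0750, and 3.49e-06 with the replicate block). Its groups did not overlap. CCL3L1 and CCL3L3 had fold changes of 0.25 and 0.66 (limma adjusted p 0.726 and 0.288, and 0.00407 and 3.88e-15 with the replicate block), and their groups overlapped. CCL22, a CCR4 ligand, and CCL28 stood at 0.31 and 0.22, CCL16 at −0.02 and CCL1 at −0.29 (limma adjusted p from 0.228 to 0.955). With the block 6 of the 10 passed, all higher, where 19.2% of all genes passed as higher and 34.9% in either direction. They were CCL5, CCL4 with its copies CCL4L1 and CCL4L2, and the CCL3 copies CCL3L1 and CCL3L3. As these include copies, they are not 6 independent genes. The median of the 10 genes, with each copy counted as a gene, was 0.36 on the log2 scale.

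Of 18 other receptors listed, 13 were present in the deposited data and 6 reached a mean of 1 TPM. These 6 gave no call with limma, where 18.4% of all genes passed. The unadjusted limma p was under 0.05 for 4044 of all 12042 fitted genes, and for 1 of these 6 receptors. That receptor was XCR1, which binds lymphotactin and lies beside CCR1 on chromosome 3. It had 7.13 and 7.04 TPM with DMSO and 5.76 and 2.97 TPM with JG342, which differ by −0.64 ± 0.24 SE (limma adjusted p 0.0963, 0.00131 with the replicate block). It also passed when JG342 replicate 1 was left out (limma adjusted p 0.00895). CXCR2, CCR3 and ACKR2, a scavenger of CC chemokines, had 0.32, 0.27 and 0.17, and CCR6 and ACKR4 had −0.01 and −0.08, with limma adjusted p between 0.337 and 0.977. CCR7, CCR9, CXCR1, CXCR5, CX3CR1 and CCRL2 were at 0.36 TPM or below in every library. In the receptor cluster on chromosome 3, the genes CCR9, XCR1, CCR1, CCR3, CCR2 and CCRL2 had 0.08, 7.13, 308, 3.01, 16.2 and 0.25 TPM in DMSO replicate 1, with CCR1 the highest of these 6.

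**Figure D4:**
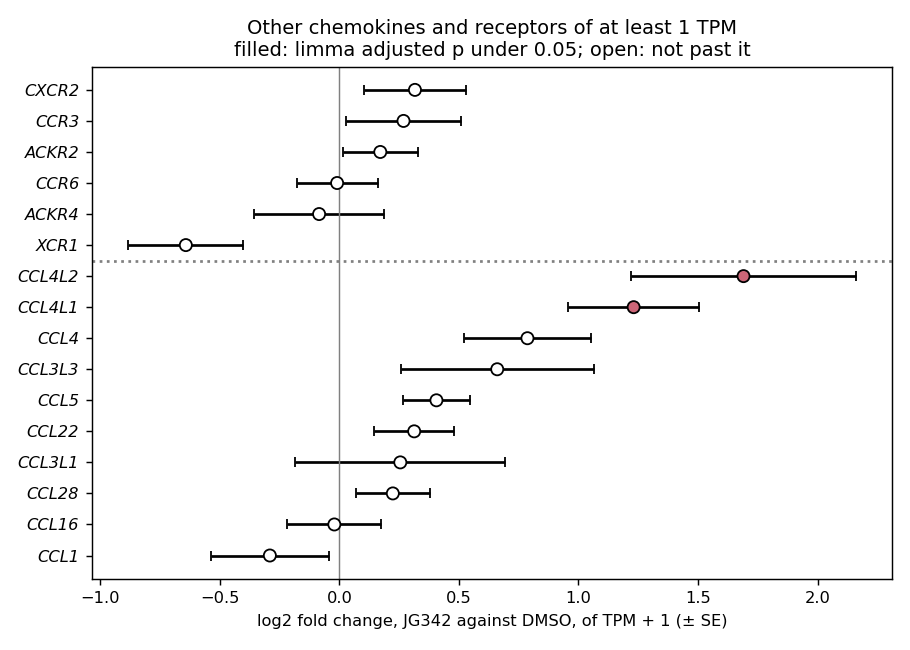
Log2 fold change of TPM + 1, JG342 against DMSO, with SE bars, for the 10 other chemokines (below the dotted line) and 6 other receptors (above it) that were fitted. Filled points are past a limma adjusted p of 0.05: CCL4L2 at 1.69 and CCL4L1 at 1.23.

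Genes that carry or damp the receptor signal come next. Of 32 fitted genes of receptor signalling, 3 rose and none fell (9.38% past the threshold against 18.4% of all genes; median −0.03). RGS16 and RGS3, which switch off the G proteins used by chemokine receptors, rose. RGS16 went from 15.9 and 20.2 TPM to 40.1 and 59.7 TPM (1.40 ± 0.19 SE, limma adjusted p 0.00227), and RGS3 from 15.3 and 12.9 TPM to 26.0 and 33.2 TPM (1.01 ± 0.15 SE, limma adjusted p 0.00369). STAT3 rose from 21.4 and 21.9 TPM to 36.9 and 32.5 TPM (0.66 ± 0.12 SE, limma adjusted p 0.00798). These 3 passed in each of the 13 alternatives. With the replicate block 12 genes of this list passed, 7 higher and 5 lower, where 34.9% of all genes did, after median scaling 7 passed, 3 higher and 4 lower, and without JG342 replicate 2 the count was 5.

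Among genes that process or modify ligands and receptors, 3 of 12 fell and 1 rose (33.3% past the threshold against 18.4% of all genes). TPST2, which adds the tyrosine sulfates that chemokine receptors need for ligand binding, fell from 200 and 192 TPM to 137 and 126 TPM (−0.57 ± 0.09 SE, limma adjusted p 0.00539). MIF, a cytokine that also binds CXCR4, fell from 2168 and 2167 TPM to 1586 and 1582 TPM (−0.45 ± 0.09 SE, limma adjusted p 0.00991), and HMGB1, a partner of CXCL12, fell by 0.52 (limma adjusted p 0.0122). ADAM17, a shedding protease, rose by 0.46 (limma adjusted p 0.0290), but did not pass after median scaling (0.0524) or quantile normalization (0.053). Without a filter on low values MIF, HMGB1 and ADAM17 did not pass (limma adjusted p 0.0566, 0.0625 and 0.0689). ADAM10, the main protease that releases CXCL16, had 77.6 and 89.2 TPM with DMSO and 69.0 and 57.2 TPM with JG342 (limma adjusted p 0.0556, 0.000364 with the replicate block). TPST2 passed in each alternative, whereas 1 gene of the list passed without DMSO replicate 2 and 2 without DMSO replicate 1.

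The list of interferon and NF-kB regulators holds both activators and inhibitors of the pathways that induce CXCL10. Of 33 fitted, 5 rose and 1 fell (18.2% past the threshold against 18.4% of all genes; median 0.05). STAT2 and IRF9, which carry the interferon signal to the ISRE, rose. STAT2 went from 54.9 and 58.5 TPM to 102 and 88.5 TPM (0.73 ± 0.11 SE, limma adjusted p 0.00328), and IRF9 from 13.1 and 8.85 TPM to 21.2 and 19.6 TPM (0.86 ± 0.18 SE, limma adjusted p 0.0122). JAK1 and IFNGR1, parts of the interferon receptor pathway, rose by 0.58 and 0.48 (limma adjusted p 0.00754 and 0.0424). IFNGR1 did not pass after median scaling or quantile normalization (limma adjusted p 0.0723 and 0.0758). TNFAIP3, an inhibitor of NF-kB that is itself an NF-kB target, fell by 0.59 (limma adjusted p 0.0102). Without a filter on low values IRF9, IFNGR1 and TNFAIP3 did not pass (limma adjusted p 0.0816, 0.115 and 0.0596).

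IRF1, the other main activator of CXCL10, had 79.2 and 70.4 TPM with DMSO and 90.4 and 85.8 TPM with JG342 (limma adjusted p 0.154, and 0.0461 with the replicate block). The NF-kB subunits RELA and NFKB1 stood at 0.05 and 0.11 (limma adjusted p 0.783 and 0.566). TBX21, the T cell factor that activates CXCR3, was at 0 TPM in 3 libraries and 0.08 TPM in JG342 replicate 2. With the block 10 regulators passed, 8 higher and 2 lower, where 34.9% of all genes did. Without DMSO replicate 2 the count was 2, and without DMSO replicate 1 it was 3, while STAT2 passed in each alternative.

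Genes commonly induced along with CXCL9 to CXCL11 went both ways: of 22 fitted, 3 rose and 2 fell (22.7% past the threshold against 18.4% of all genes; median −0.03). GBP1, an interferon-induced GTPase, fell from 11.9 and 14.1 TPM to 6.76 and 7.93 TPM (−0.75 ± 0.16 SE, limma adjusted p 0.0127). Its relative GBP2 rose by 0.78 (limma adjusted p 0.0349), but did not pass after median scaling (0.062) or quantile normalization (0.0807). TAP2, a peptide transporter subunit, fell by 0.48 (limma adjusted p 0.0198) and OAS1 rose by 0.57 (limma adjusted p 0.0120). Without a filter on low values GBP1, GBP2 and TAP2 did not pass (limma adjusted p 0.0674, 0.101 and 0.0676). WARS1 (listed as WARS), a tRNA synthetase that is also a target of the stress factor ATF4, rose from 47.7 and 56.7 TPM to 137 and 173 TPM (1.55 ± 0.14 SE, limma adjusted p 0.000253), in each alternative. IDO1, ISG15, IFIT3 and TAP1 did not pass (limma adjusted p between 0.161 and 0.918), though ISG15, at 8.22 and 9.98 TPM with DMSO and 4.21 and 8.11 TPM with JG342, passed with the replicate block (0.00416). Without DMSO replicate 2 the list had 1 call, and without DMSO replicate 1 it had 2.

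Adhesion and homing genes that act beside the chemokine receptors were mixed as well, with 3 of 12 higher and 2 lower (41.7% past the threshold against 18.4% of all genes; median 0.03). CD9, a tetraspanin, fell from 181 and 222 TPM to 111 and 118 TPM (−0.81 ± 0.12 SE, limma adjusted p 0.00276). ITGAL and ITGB2, the subunits of the integrin LFA-1, rose by 0.55 and 1.49 (limma adjusted p 0.00852 and 0.0180), ITGB2 from 1.15 and 0.22 TPM to 2.40 and 5.10 TPM. CD44, the hyaluronan receptor, rose by 0.44 (limma adjusted p 0.0468), but did not pass after median scaling (0.106). Without a filter on low values ITGB2 and CD44 did not pass (limma adjusted p 0.104 and 0.156). The integrin ITGA4 and its partner ITGB7 stood at −0.05 and −0.05 (limma adjusted p 0.790 and 0.827). Without DMSO replicate 2 the list had 1 call, and without DMSO replicate 1 it had 3.

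**Figure D5:**
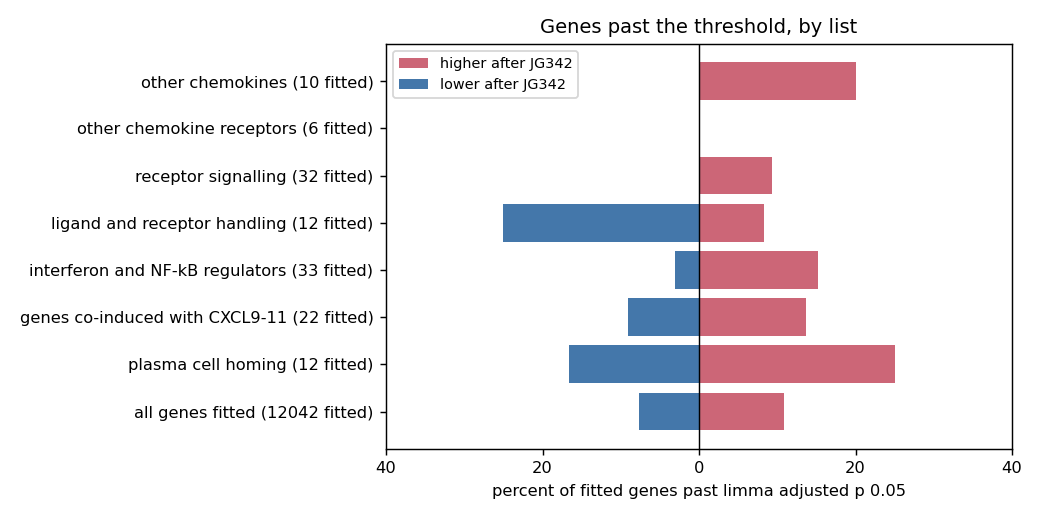
Percent of the fitted genes of each list past a limma adjusted p of 0.05 (horizontal axis), higher after JG342 to the right in red and lower to the left in blue, with all 12042 fitted genes in the bottom row at 10.8% and 7.62%. With both directions counted together, receptor signalling has the lowest percent among the lists with a call, at 9.38%.

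All 10 plasma cell markers were above 1 TPM on average and their summed level was 14838 and 14573 TPM with DMSO and 10672 and 10036 TPM with JG342, most of it JCHAIN. JCHAIN, the joining chain of secreted antibodies, fell by 0.86 (limma adjusted p 0.00117), and without it the sums overlapped, at 4931 and 4190 TPM with DMSO and 4941 and 4605 TPM with JG342. Of the 10 plasma cell markers, 3 rose (IRF4, PRDM1 and CD27) and 2 fell (JCHAIN and TNFRSF17). This is 50% past the threshold against 18.4% of all genes, and the median was 0.04 on the log2 scale. CXCR3 and CXCL10 are best known from T cells and myeloid cells, so markers of those cells are given beside them. Of the 8 T and NK cell markers measured, 4 averaged 1 TPM or more, with a sum of 46.0 and 49.0 TPM with DMSO and 51.4 and 38.4 TPM with JG342, and CD8A and CD4 were at most 0.27 TPM. The 4 went different ways: CD3G rose by 0.80 (limma adjusted p 0.0152), KLRD1 stood at 0.05 (0.857), and CD3E and TRAT1 stood at −0.55 and −0.46 (limma adjusted p 0.132 and 0.107, and 0.00753 and 0.00440 with the replicate block). Of 6 myeloid markers 2 (LYZ and CD68) reached that level, with sums between 76.6 and 85.3 TPM in all libraries, and CSF1R was at most 0.06 TPM. Stromal and endothelial markers summed to between 3.97 and 5.66 TPM. The sums of all but the plasma cell list overlapped between treatments, and the part of these markers in the results above was not tested.

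Over all genes, 1304 were higher and 917 lower after JG342, and after scaling to equal medians 966 were higher and 1200 lower. The median over all fitted genes was 0.03 on the log2 scale and −0.03 after that scaling. Genes past the threshold numbered 773 without DMSO replicate 2 and 1060 without DMSO replicate 1. The TPM of a library summed to between 994463 and 994718. Reads estimated for the genes with a GENCODE transcript length came to 8650000 to 9580000 per library, which leaves out all other reads. By this estimate JG342 replicate 1 was the shallowest and JG342 replicate 2 the deepest library.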

How the data were processed

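The deposited table gives 1 value per gene and library, with a symbol and a RefSeq mRNA accession. The authors' values are taken to be TPM, which no header or label states. This was inferred because the libraries sum to nearly the same total, 994463 to 994718. The submitters' processing notes name HISAT2 2.0.4, Bowtie2 2.2.5 and RSEM 1.2.12, with no role given; the genome build, annotation, filters and strand setting are not given in the sources used here.

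TPM were transformed to log2(TPM + 1), which understates changes of low genes, and 12042 genes that averaged 1 TPM or more were fitted with limma 3.58.1 in R 4.3.3 (mean-variance trend, treatment as the only term). P-values are two-sided, adjusted over all fitted genes by Benjamini-Hochberg, with a threshold of 0.05. With 2 libraries per group an exact permutation test cannot go below p = 0.333, and the standard errors rest on 2 residual and 6.89 prior degrees of freedom. The fit was tested on simulated data.

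Same-numbered libraries share a prefix in the sample descriptions. Their deviations from the group means correlated across genes at r = 0.275, so another fit blocked on the replicate number. It leaves 1 residual degree of freedom, with an infinite prior, so its p-values rest on variance shared by genes of like level.

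Depth is not recorded in TPM. Reads were estimated from the step between low values times GENCODE release 29 transcript length, and entered no test.

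The 10 genes and the lists were chosen with earlier results of these data known. The genes named are these 10, the other chemokines and receptors that were fitted, up to 6 genes of each other list past the threshold, and the 5 nearest in profile to CXCL10 and CXCR3. ADAM10, IRF1, RELA, NFKB1, TBX21, IDO1, ISG15, IFIT3, TAP1, ITGA4, the plasma and T cell markers, ITGB7, CXCL12, CCL2 and the receptors below 1 TPM were chosen after their values were seen, as was the sum over the CCL3 copies. All 10 accessions carry the same symbol in RefSeq GRCh38.p14; since the authors' build is not stated, coordinates are given only for RefSeq promoters. Some genes of the lists are counted but not reported here by name.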

Additional observations from a re-analysis of the deposited data

How the results depend on the processing

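Over 13 alternatives, the log2 fold changes of CXCL10, CXCR3, CXCR4, CCR10, CCR1, CXCL16 and CCL3 kept their sign, whereas CCR2 changed sign in 2. CXCL10 ran from −1.82 to −1.22, CXCR3 from −1.76 to −1.25 and CCL3 from 0.51 to 1.14. The median of the 8 fitted genes was −0.65 after median scaling, with or without the replicate block, and −0.69 to −0.53 when 1 library was left out. Of the 25 genes past the threshold that the naming rule takes from the other lists, 7 passed in each alternative.

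Genes past the threshold numbered 2221 in all, 828 without a filter on low values, 4207 with the replicate block and 3985 with the replicate block and median scaling. Without the filter the counts were 0 for other chemokines, 1 for ligand and receptor handling, and 2 each for regulators, co-induced genes and homing. Other chemokines gave 1 call after median scaling, 1 after quantile normalization and 0 without the trend, and receptor signalling gave 7 and 5 after the 2 scalings. The replicate block gave 6 other chemokines, 1 other receptor, 12 signalling genes and 10 regulators, and with median scaling in addition 5, 1 and 12 for the first of these lists. Outside the chosen set, its calls differed for CCL3L1, CCL3L3, CCL4, CCL5, XCR1, ADAM10, IRF1, ISG15, CD3E and TRAT1 among the genes named with a p. Leaving out 1 library gave 773 to 1905 genes in all, 2 to 4 other chemokines, 0 to 1 other receptors, 3 to 5 signalling, 1 to 3 handling, 2 to 6 regulator, 1 to 5 co-induced and 1 to 4 homing genes. In these fits the lone library of a group is assumed to vary like the others. CCL3L1 then ran from −0.49 to 1.00, CCL16 from −0.23 to 0.19, CCR3 from −0.043 to 0.58, CCR6 from −0.16 to 0.14 and ACKR4 from −0.43 to 0.27. The lower counts without the filter come with 16057 genes tested and a smaller prior (2.74 degrees of freedom), and with fewer libraries the fits have fewer samples; the cause of the other differences was not tested. Depth limits CXCL9 and CXCL11, at about 1 read or none per library.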
